A study of Homo sapiens with 14 samples.

Results

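Genes of antioxidant defence that are established targets of the transcription factor NRF2 were followed through every treatment: GCLC, GCLM, SLC7A11, TXNRD1, SRXN1, NQO1, ME1, HMOX1 and OSGIN1. The members are the rows of the deposited gene count table whose gene name is one of these listed NRF2 targets, 9 of 58780 genes, and 9 of 9 passed the filter on low counts that left 21910 genes for testing. The choice rested on gene names and on no threshold in the values, but it was made with earlier results of these data known, so the p-values below describe the members and are not independent support. The study measured nascent transcription by PRO-seq (precision run-on sequencing, in which engaged polymerases extend their RNA with labelled nucleotides in permeabilized cells) in A549, a human lung adenocarcinoma cell line. GSK591 inhibits PRMT5, the main symmetric arginine methyltransferase. MS023 inhibits the type I enzymes, which make asymmetric dimethylarginine, and dexamethasone (Dex) is a synthetic glucocorticoid. There were 7 groups of 2 libraries: untreated cells, whose label carries 15 min, GSK591 or MS023 for 15 min, GSK591 with Dex or MS023 with Dex for 15 min, and GSK591 or MS023 for 3 h. Each inhibitor was given at 1 µM, Dex was given at 100 nM, and the carrier, 0.01% DMSO, was also given to the untreated cells. Untreated cells held for 3 h and cells given Dex alone are not analysed here, so at 3 h time in culture and inhibitor cannot be told apart, and Dex can be read only beside an inhibitor.

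NRF2, encoded by NFE2L2, pairs with small MAF proteins on antioxidant response elements and raises transcription of genes for glutathione synthesis, thioredoxin recycling, quinone reduction and haem breakdown. KEAP1 holds NRF2 in check by marking it for degradation, and BACH1 competes for the same elements. A549 cells carry a KEAP1 mutation, so NRF2 is already active in them before any treatment.

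The elements through which NRF2 acts were looked up in the RefSeq promoter windows of the members (GRCh38.p14, 250 bases before to 50 after each start site). The members were chosen by gene name and not by these elements. The core searched was TGACNNNGC on both strands. It was present in 13.3% of all 35116 promoter windows of 300 bases and in 4 of the 8 windows of the 7 members that have one. SLC7A11 and HMOX1 had no entry. These 4 windows held 6 matches, of which 2, 1 in ME1 and 1 at the first TXNRD1 start, reach past the start site and are not printed. The 4 that lie wholly before the start site read as follows, 5′ to 3′ on the gene's strand, with the matched bases in capitals. They lie at chr1:93909446-93909474 (minus strand) for GCLM, chr6:83431159-83431209 (minus strand) for ME1, chr12:104215659-104215709 (plus strand) for TXNRD1 and chr12:104286920-104286948 (plus strand) for a second TXNRD1 start site.
GCLM: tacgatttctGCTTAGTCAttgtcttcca
ME1: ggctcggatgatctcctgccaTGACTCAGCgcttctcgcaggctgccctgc
TXNRD1: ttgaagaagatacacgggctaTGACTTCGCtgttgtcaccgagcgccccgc
TXNRD1, second start: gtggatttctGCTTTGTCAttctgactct
In GCLM and at the second TXNRD1 start the core reads on the strand opposite to the gene, which is why the capitals begin with GC. The ME1 match also holds the AP-1 core TGACTCA. The windows of GCLC, NQO1, OSGIN1 and SRXN1 had no match, which says only that these letters are not in these windows. SRXN1 is the member with the widest changes, and the first 80 bases upstream of its annotated gene (chr20:653371-653450, minus strand) are shown for their base composition, 80.0% G or C.
SRXN1, upstream: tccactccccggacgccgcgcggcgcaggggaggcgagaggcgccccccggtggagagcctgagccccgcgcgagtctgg

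Libraries held 5768312 to 9606938 counts, of which 39.8% to 58.0% lay in mitochondrial genes. The group mean of that share ran from 42.2% in cells given MS023 for 15 min to 53.9% in untreated cells. Levels are given as counts divided by library size (CPM), with library sizes scaled by the trimmed mean of M-values (TMM), and differences as log2 fold changes ± SE from edgeR's quasi-likelihood test over all 14 libraries. A gene is called where its Benjamini-Hochberg adjusted p over all tested genes is under 0.05, and "rose" and "fell" are used of called genes alone. Nothing in the labels says that the 2 libraries of a group came from separate cultures, so p-values measure the spread between these samples, which may be technical. In bulk libraries fewer responding cells and less RNA per cell cannot be told apart. The keratin genes KRT8 and KRT18, which mark epithelial cells, were at 259 to 353 CPM and 119 to 178 CPM, and KRT19 was at 13.2 to 24.5 CPM. The other epithelial markers were low, EPCAM at 1.30 to 4.09 CPM and CDH1 at 1.38 to 3.46 CPM. CDKN2A, deleted in A549, had 0 or 1 count per library, but MTAP, listed with it as deleted, had 127 to 199. None of the 4 leukocyte and 3 endothelial markers passed the filter, and of 4 fibroblast genes only COL1A1 did, with 40 to 69 counts. The 4 fibroblast genes summed to 6.54 to 8.72 CPM over the group means, and their part in the results was not tested.

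The members did not move as one set. SRXN1 and GCLC rose in each group given Dex beside an inhibitor and in both 3 h groups, OSGIN1 fell in 3 of those 4 groups, and HMOX1 and ME1 were called in none of the 13 comparisons made. Of the 117 pairs of a member and a comparison, 31 were called. The 13 comparisons reuse the same 14 libraries, so these pairs are not independent. Of all tested genes, 0% to 12.0% were called, depending on the comparison. Within 15 min of GSK591 alone 1 of 9 members was called, higher, where 0.306% of all tested genes were called. Within 15 min of MS023 alone 1 of 9 was called, lower (0.183% of all genes). Against untreated cells, GSK591 with Dex called 3 of 9 members, 2 higher and 1 lower (5.85% of all genes called), and MS023 with Dex called 4 of 9, 2 higher and 2 lower (7.66%). At 3 h, GSK591 called 4 of 9 members, 2 higher and 2 lower (11.0%), and MS023 called 3 of 9, each higher (7.63%). These comparisons share the untreated libraries. The members' median log2 fold change was 0.24 with MS023 at 3 h, against -0.01 over all tested genes, and lay between -0.20 and 0.06 in the other comparisons with untreated cells, where the medians of all genes lay between -0.01 and 0.02.

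**Figure D1:**
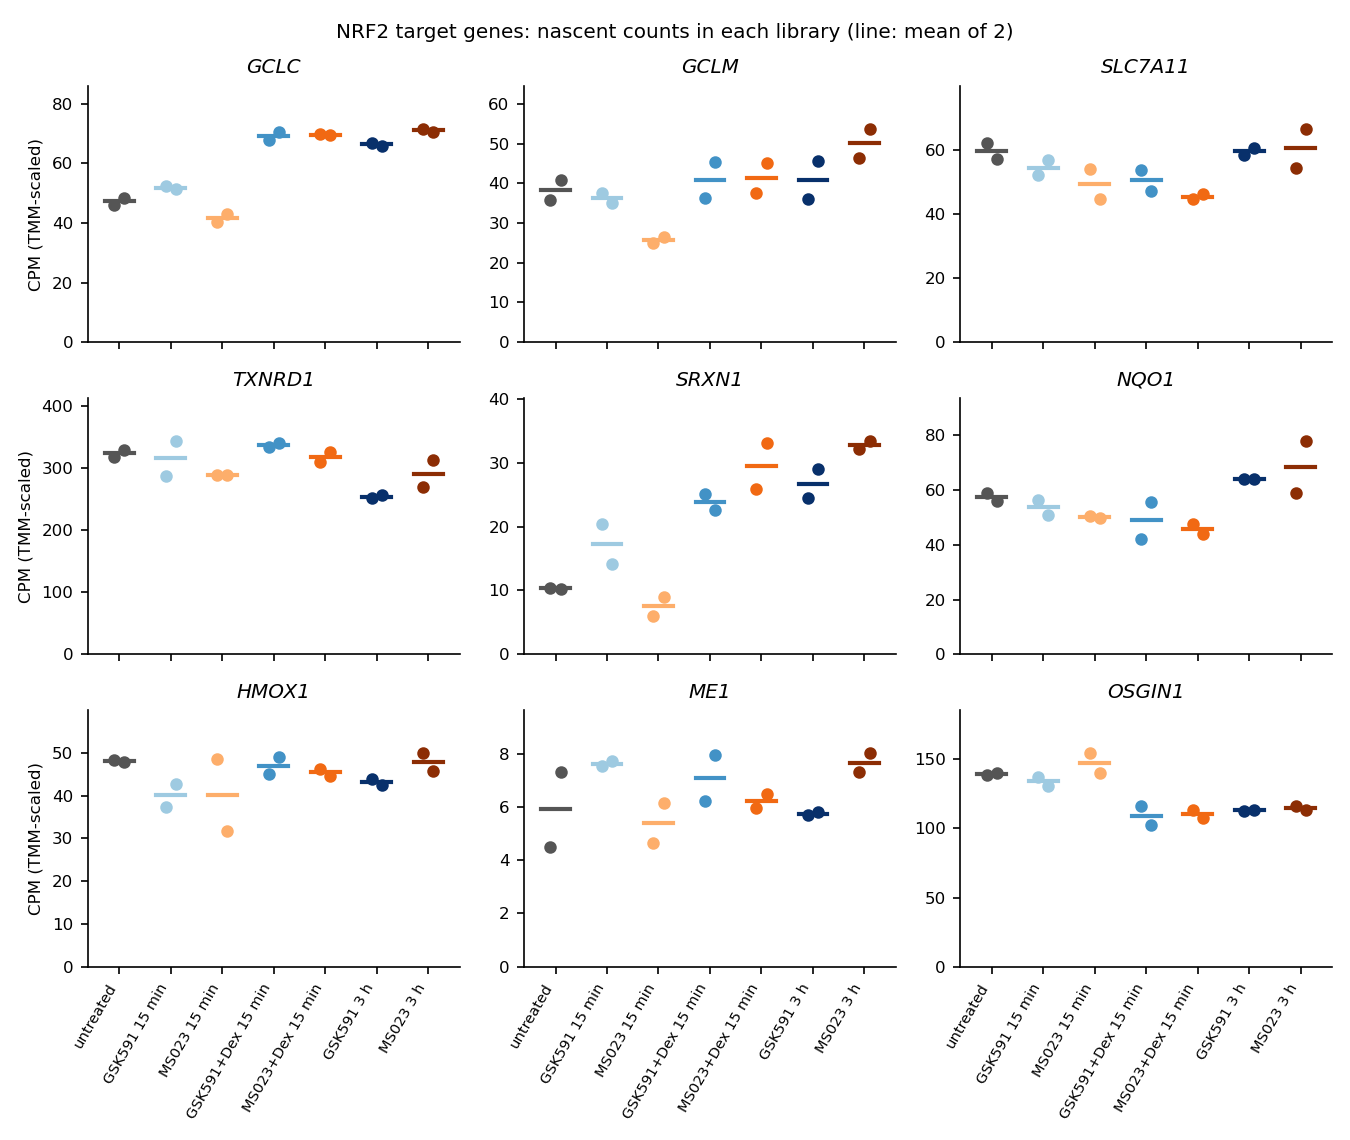
Each panel plots a member gene, with CPM on TMM-scaled library sizes on the vertical axis and the 7 groups on the horizontal axis; points are the 2 libraries and lines their mean. SRXN1 runs from 6.05 CPM in a library of MS023 for 15 min to 33.4 CPM in a library of MS023 for 3 h, whereas HMOX1, outside the group of MS023 for 15 min, stays between 37.4 and 49.9 CPM.

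Divided by exon length, the members fell over a wide range in untreated cells. TXNRD1 was at 48.2 ± 1.25 CPM per kb (SD, n = 2), OSGIN1 at 40.2 ± 0.330 and HMOX1 at 20.0 ± 0.162. NQO1 followed at 17.7 ± 0.626 CPM per kb, GCLM at 7.09 ± 0.656, SLC7A11 at 6.18 ± 0.359 and GCLC at 5.47 ± 0.184. The lowest were SRXN1 at 3.82 ± 0.0655 CPM per kb and ME1 at 1.76 ± 0.591. No 2 neighbours in this order overlapped in their libraries, but GCLM, SLC7A11 and GCLC lay close together. After 3 h of MS023, SRXN1 stood at 12.1 ± 0.320 CPM per kb, above GCLM at 9.23 ± 0.967, GCLC at 8.23 ± 0.0806 and SLC7A11 at 6.27 ± 0.886. Division by exon length assumes that reads were counted over exons, which is not stated in the sources used here. For SRXN1, 2292 of the 2698 exon bases are shared with AL121758.1 on the same strand. If reads there were counted for neither gene, its level per kb is understated, so its place in this order is uncertain.

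GCLC encodes the catalytic subunit of glutamate-cysteine ligase, the rate-limiting enzyme of glutathione synthesis (chr6:53497341-53616970, minus strand, GENCODE 29 on GRCh38). Its 2 untreated libraries were at 46.1 and 48.4 CPM. Cells given GSK591 for 15 min had 52.3 and 51.5 CPM, and cells given MS023 for 15 min had 40.4 and 43.1. With Dex, GCLC was at 67.8 and 70.5 CPM beside GSK591 and at 69.8 and 69.5 beside MS023. The 4 libraries with Dex thus lay well above both untreated libraries and all 4 libraries of an inhibitor alone at 15 min. At 3 h GCLC stood at 66.9 and 65.8 CPM with GSK591 and at 71.6 and 70.7 with MS023, again with no overlap with the 15 min or untreated libraries.

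Against untreated cells GCLC rose by 0.55 ± 0.10 with GSK591 and Dex (adjusted p 0.00024, edgeR; 0.41 and 0.074 with scaling by library size alone) and by 0.56 ± 0.10 with MS023 and Dex (7.4e-05). At 3 h the rises were 0.49 ± 0.10 with GSK591 (0.00037) and 0.59 ± 0.10 with MS023 (2.8e-05). Dex added 0.74 ± 0.10 beside MS023 (7.1e-07) and 0.41 ± 0.10 beside GSK591 (0.0083), and the difference between these Dex effects, -0.33 ± 0.14, was not called (0.35). For Dex beside MS023, 4 of 9 members were called, 3 higher and 1 lower, where 8.97% of all genes were called. For Dex beside GSK591, GCLC was the 1 member of 9 called, where 3.70% of all genes were called. The Dex effect beside GSK591 was not called without GSK591 15 min replicate 1 (0.43, adjusted p 0.082), without replicate 2 of that group (0.40, 0.10) or without GSK591 with Dex replicate 2 (0.40, 0.079), and with scaling by library size alone it was 0.21 (0.38).

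The first 500 transcript bases of GCLC are 75% G or C, a share that 96.8% of tested genes do not exceed. After removal of each library's trend with GC content and length, an alternative added after the data were seen, the 3 h values of GCLC were 0.15 with GSK591 (adjusted p 0.33) and 0.25 with MS023 (0.091). Neither was called. The same alternative left GCLC called with Dex: 0.36 with GSK591 and Dex (0.017), 0.29 with MS023 and Dex (0.048) and 0.40 for Dex added to MS023 (0.0045).

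GCLM encodes the modifier subunit that lowers the enzyme's feedback inhibition by glutathione (chr1:93885205-93909456, minus strand), and its element is the first of the sequences printed above. It was at 35.9 and 40.9 CPM in untreated cells and at 37.7 and 35.2 after 15 min of GSK591. After 15 min of MS023 it was at 24.9 and 26.4 CPM, the lowest values of all 14 libraries, with no overlap with any other group. With Dex beside MS023 it was at 37.5 and 45.1 CPM, and after 3 h of MS023 at 46.3 and 53.8. GCLM stood at 36.2 and 45.3 CPM with GSK591 and Dex and at 36.0 and 45.6 after 3 h of GSK591, in both cases overlapping the untreated libraries.

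GCLM fell by 0.59 ± 0.13 with MS023 at 15 min (adjusted p 0.039, edgeR), but the call was lost when any 1 of the 4 libraries was left out, with values from -0.69 to -0.50, and with scaling by library size alone (-0.42, 0.27). Dex added to MS023 raised it by 0.69 ± 0.13 (0.00029), and it rose by 0.96 ± 0.13 from 15 min to 3 h of MS023 (7.2e-07). Both calls were kept under each of the 8 other settings and each of the 4 fits without 1 library. Both comparisons start from the low 15 min libraries of MS023: against untreated cells the 3 h value was 0.38 ± 0.12 (0.048), not called without any 1 of its 4 libraries (0.28 to 0.49) or under 5 of the 8 other settings (0.20 at the lowest, with the GC and length trends removed, adjusted p 0.31), and the value with MS023 and Dex was 0.10 ± 0.12 (0.72).

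SLC7A11 encodes the cystine importer xCT, which supplies cysteine for glutathione (chr4:138164097-138242349, minus strand; 865 of its exon bases lie opposite those of SLC7A11-AS1, and the strand setting of the counts is not stated). Untreated libraries were at 62.1 and 57.2 CPM, and those with MS023 and Dex at 44.6 and 46.0. The 2 groups did not overlap. SLC7A11 fell by 0.39 ± 0.11 in that comparison (adjusted p 0.017, edgeR), was not called by DESeq2 (0.062) or with library size alone (-0.40, 0.11), and lost the call without any 1 of the 4 libraries (-0.45 to -0.34). At 3 h SLC7A11 was at 58.5 and 60.5 CPM with GSK591, between the untreated libraries. With MS023 it was at 54.4 and 66.5 CPM, on both sides of them. It was called in no other comparison.

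TXNRD1, the cytosolic thioredoxin reductase (chr12:104215779-104350305, plus strand), had the highest counts of the members, 1924 to 3008 per library. It was at 317 and 329 CPM in untreated cells, 287 and 343 after 15 min of GSK591, and 289 in both libraries after 15 min of MS023. With Dex the 4 libraries ran from 309 to 340.5 CPM. After 3 h of GSK591 they were at 251 and 256 CPM, the lowest of all 14, and after 3 h of MS023 at 269 and 312. TXNRD1 fell by 0.35 ± 0.10 with GSK591 at 3 h (adjusted p 0.022, edgeR). The call was lost without any 1 of the 4 libraries (-0.38 to -0.32) and with library size alone as the scaling (-0.22, 0.38). It was kept with the GC and length trends removed.

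SRXN1 encodes sulfiredoxin, which repairs peroxiredoxins whose active-site cysteine has been overoxidized (chr20:646615-653370, minus strand). It covered the widest range of the members, 2.13 on the log2 scale between its highest and lowest group means, with 0.24 as the SD between replicates. Untreated libraries were at 10.4 and 10.2 CPM. After 15 min of GSK591 SRXN1 was at 20.4 and 14.2 CPM, both above the untreated libraries, and after 15 min of MS023 at 6.05 and 9.01, both below them. With Dex it reached 25.0 and 22.6 CPM beside GSK591 and 25.9 and 33.0 beside MS023. At 3 h it stood at 24.5 and 28.95 CPM with GSK591 and at 32.2 and 33.4 with MS023. All 8 libraries with Dex or of 3 h lay above all 6 others. How many of all tested genes do so was not counted.

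Against untreated cells SRXN1 was 2.31-fold higher with GSK591 and Dex (log2 1.21 ± 0.17, adjusted p 6.7e-06, edgeR). With MS023 and Dex it was 2.86-fold higher (1.52 ± 0.16, 7.6e-09). At 3 h it was 2.58-fold higher with GSK591 (1.37 ± 0.16, 7.3e-08) and 3.17-fold higher with MS023 (1.67 ± 0.16, 7.1e-10). These 4 calls held under each of the 8 other settings and without any 1 of their libraries. With the GC and length trends removed they were 1.07, 1.25, 1.02 and 1.33. SRXN1 is among the most GC-rich genes, with 75.8% G or C in its first 500 bases against a median of 56.8% over tested genes.

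**Figure D2:**
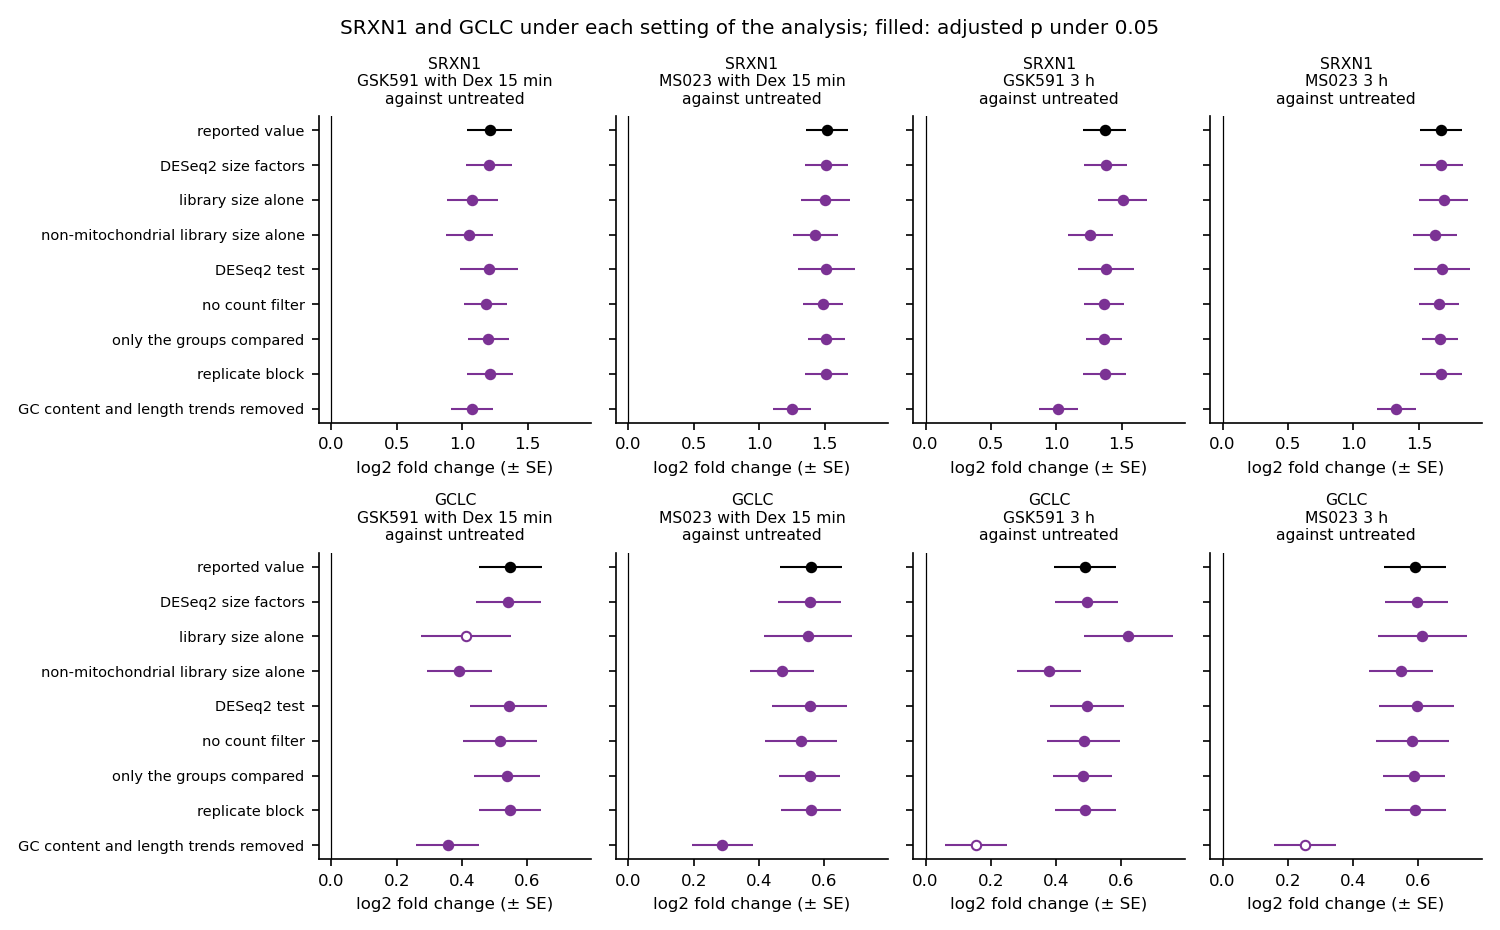
Log2 fold changes against untreated cells on the horizontal axis (± SE) for SRXN1 in the upper row and GCLC in the lower row, under the reported analysis in black and 8 alternatives in purple; filled points have an adjusted p under 0.05. Every SRXN1 point is filled, whereas GCLC at 3 h is open with the GC and length trends removed, at 0.15 with GSK591 and 0.25 with MS023.

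At 15 min without Dex, SRXN1 was the member on which the inhibitors differed most. It rose by 0.75 ± 0.17 with GSK591 (adjusted p 0.046). That call was lost under 4 of 7 other settings, where the values ran from 0.59 to 0.81, and of the 4 fits without 1 library it was kept only without GSK591 15 min replicate 2 (0.99). Without GSK591 replicate 1 the value was 0.46 (0.9994), and without either untreated library it was 0.76 (0.58) or 0.73 (0.41). With MS023 the value was -0.49 ± 0.21 (0.52). GSK591 stood above MS023 by 1.23 ± 0.19 (0.00027), where 1.09% of all genes and 2 of 9 members, SRXN1 and GCLM, were called, both higher with GSK591. Without GSK591 replicate 1 this difference in SRXN1 was 0.94 (0.076), and without MS023 replicate 1 it was 0.94 (0.28). The GCLM difference, 0.51 ± 0.13 (0.045), was not called without any 1 of its 4 libraries (0.46 to 0.56) or under 4 of the 8 other settings (0.41 to 0.51).

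Dex added to MS023 raised SRXN1 4.01-fold, by 2.00 ± 0.18 on the log2 scale (adjusted p 6.0e-11, edgeR), and both libraries with Dex exceeded both without it. Beside GSK591 the Dex effect was 0.46 ± 0.16 and was not called (0.10). It was called at 0.75 (0.038) without GSK591 15 min replicate 1, the higher of the libraries it starts from. The difference between the Dex effects, GSK591 minus MS023, was -1.54 ± 0.24 (0.00028), and 1.15% of all genes and 1 of 9 members were called in that comparison. Without MS023 15 min replicate 1, at 6.05 CPM the lowest library, the difference was -1.25 (0.063). The groups with Dex themselves were close, at means of 23.8 ± 1.69 and 29.5 ± 4.99 CPM (SD, n = 2), and the groups without it were apart, at 17.3 ± 4.37 and 7.53 ± 2.09 CPM. PER1, a direct glucocorticoid receptor target used as the check of the Dex label, rose by 1.89 ± 0.13 beside GSK591 and by 1.91 ± 0.12 beside MS023.

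Between 15 min and 3 h SRXN1 rose 4.45-fold with MS023 (log2 2.16 ± 0.18, adjusted p 1.3e-11) and 1.54-fold with GSK591 (0.62 ± 0.15, 0.0082). The rise with GSK591 was 0.43 with the GC and length trends removed (0.054), 0.39 without GSK591 15 min replicate 2 (0.32) and 0.50 without GSK591 3 h replicate 2 (0.17). In the GSK591 time comparison 2 of 9 members were called, each higher, where 6.41% of all genes were called, and the other member was GCLC at 0.35 ± 0.10 (0.017). GCLC was not called there without any 1 library (0.34 to 0.37), with library size alone (0.42, 0.077) or with the trends removed (0.14, 0.44). In the MS023 time comparison 5 of 9 members were called, 4 higher and 1 lower, with 12.0% of all genes called.

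A second gene shares most of the exon sequence of SRXN1: 2292 of its 2698 exon bases lie within AL121758.1 on the same strand, so reads there cannot be assigned to one gene with certainty. AL121758.1 had 1.05 to 3.21 CPM and was called in no comparison. Its values with MS023 and Dex and with MS023 at 3 h were -0.05 ± 0.36 and -0.53 ± 0.39, so it did not follow SRXN1. If reads over the shared bases were counted for neither gene, the SRXN1 counts come only from its remaining exon bases. How these reads were counted was not tested.

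**Figure D3:**
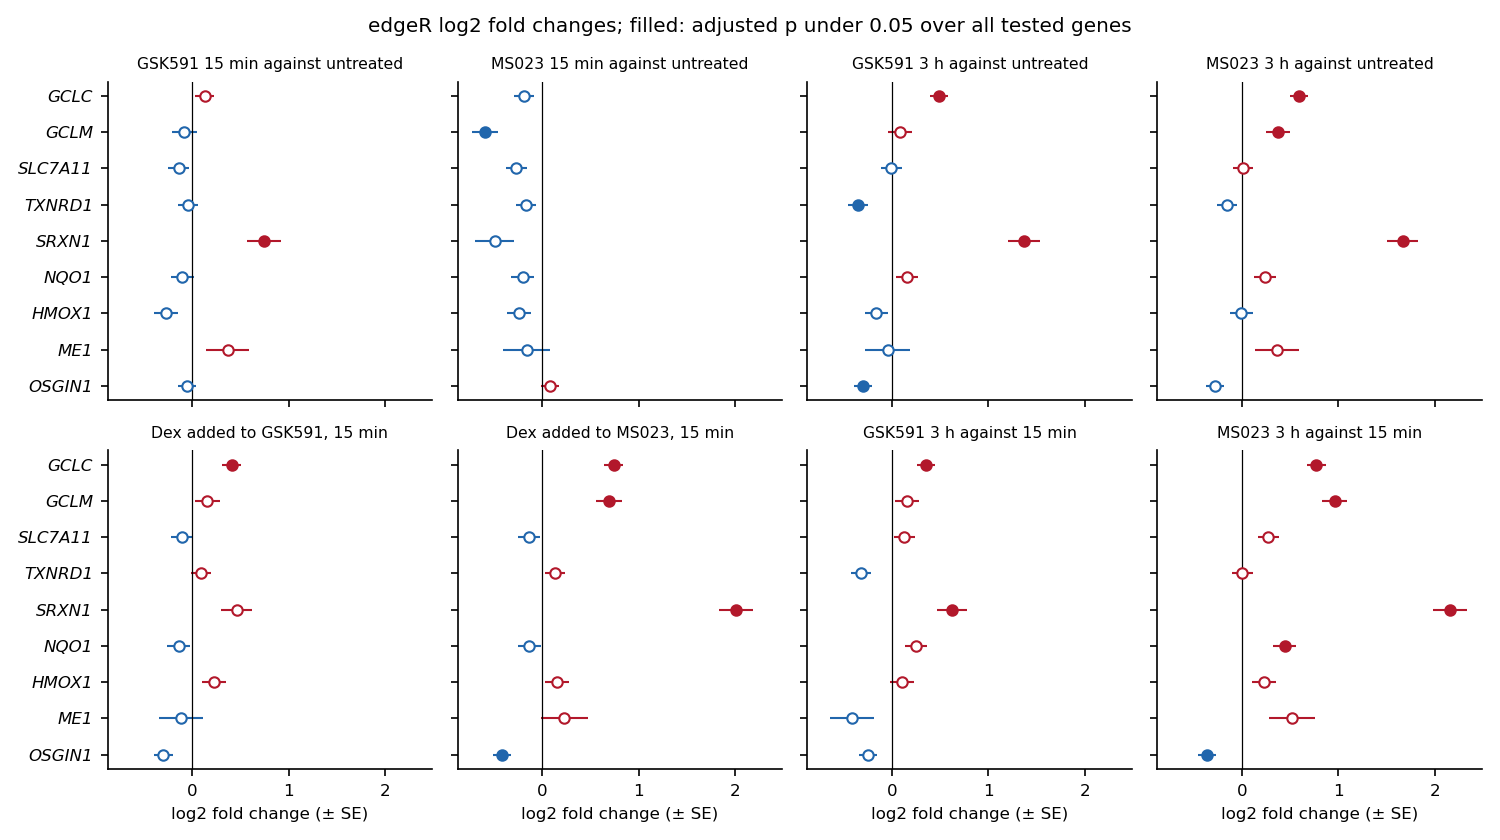
Log2 fold changes ± SE on the horizontal axis for the 9 members, ordered by role, in 8 comparisons; red points are above 0, blue points below, and filled points have an adjusted p under 0.05. SRXN1 lies farthest to the right in the lower panels for MS023, at 2.00 for added Dex and 2.16 for 3 h against 15 min, whereas HMOX1 and ME1 are open in all 8.

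NQO1, a quinone reductase and a common marker of NRF2 activity (chr16:69706996-69726951, minus strand), was at 58.9 and 56.1 CPM in untreated cells. It was at 56.5 and 50.9 CPM after 15 min of GSK591 and at 50.4 and 49.7 after 15 min of MS023. With Dex it was at 42.0 and 55.9 CPM beside GSK591 and at 47.7 and 44.0 beside MS023. At 3 h NQO1 was at 63.9 CPM in both libraries with GSK591 and at 59.0 and 78.0 with MS023, so that the 3 h libraries were the highest. The single call was a rise of 0.44 ± 0.12 from 15 min to 3 h of MS023 (adjusted p 0.0082, edgeR). It was lost without MS023 3 h replicate 2 (0.26, 0.28), without MS023 15 min replicate 1 (0.46, 0.077) or replicate 2 (0.44, 0.055), and with library size alone (0.30, 0.17). The value with MS023 and Dex against untreated cells was -0.33 ± 0.12 (0.082), called under 4 other settings at -0.42 to -0.33. On the strand opposite to NQO1, 575 of its exon bases lie in AC092115.2.

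ME1, the cytosolic malic enzyme that supplies NADPH (chr6:83210389-83431071, minus strand), was the least counted member, with 41 to 67 counts per library. Its libraries ran from 4.52 to 8.04 CPM, and the untreated ones, 4.52 and 7.34, spanned most of that range. No comparison called it, and its SE was 0.23 to 0.24 in 12 of the 13. Its widest values were 0.52 ± 0.24 from 15 min to 3 h of MS023 (unadjusted p 0.033, adjusted p 0.16, edgeR) and 0.52 ± 0.24 for GSK591 against MS023 at 15 min (0.032 and 0.43). In both comparisons the libraries of the groups did not overlap.

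HMOX1, haem oxygenase, which opens the haem ring and releases iron (chr22:35380361-35394214, plus strand), was at 48.4 and 47.8 CPM in untreated cells. It was at 37.4 and 42.7 CPM after 15 min of GSK591 and at 48.7 and 31.8 after 15 min of MS023, where the 2 libraries lay farther apart than in any other group. With Dex it was at 45.0 and 49.0 CPM beside GSK591 and 46.3 and 44.6 beside MS023. At 3 h it was at 43.8 and 42.4 CPM with GSK591 and 49.9 and 45.9 with MS023. The group means of HMOX1 spanned 0.29 on the log2 scale, the narrowest of the 9. Without MS023 15 min replicate 1, Dex beside MS023 was called at 0.51 (adjusted p 0.036) and 3 h against 15 min at 0.59 (0.0079), so those 2 values rest on which library stands for the 15 min group.

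OSGIN1, an oxidative stress induced growth inhibitor (chr16:83948282-83966332, plus strand; 481 of its exon bases lie within AC009119.2 on the same strand), went the other way from SRXN1 and GCLC. It was at 138 and 139.9 CPM in untreated cells, 137 and 131 after 15 min of GSK591, and 155 and 139.8 after 15 min of MS023. With Dex it was at 116 and 102 CPM beside GSK591 and at 113 and 108 beside MS023. At 3 h the libraries were at 113 in both with GSK591 and at 116 and 114 with MS023. All 8 libraries with Dex or of 3 h lay below all 6 others, the mirror of the order seen for SRXN1 and GCLC. The share of all tested genes that separate in either order was not counted, so these orders are not shown to be particular to the members.

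OSGIN1 fell by 0.35 ± 0.09 with GSK591 and Dex (adjusted p 0.020, edgeR), by 0.33 ± 0.09 with MS023 and Dex (0.019) and by 0.30 ± 0.09 with GSK591 at 3 h (0.029). With MS023 at 3 h the value was -0.28 ± 0.09 (0.062). None of the 3 calls was kept with the GC and length trends removed, where the values were -0.20 (0.21), -0.24 (0.076) and -0.22 (0.080). Library size alone ended the call with MS023 and Dex (-0.34, 0.16) and that with GSK591 at 3 h (-0.17, 0.52). The latter was also not called without a count filter (-0.30, 0.052), and GSK591 with Dex was not called in a fit of only the groups compared (-0.36, 0.063). Leaving out libraries ended each of them: the last 2 without any 1 of the 4, and the first without GSK591 with Dex replicate 2 (-0.25, 0.26) or either untreated library (-0.36, 0.13 and -0.34, 0.14). Dex added to MS023 lowered OSGIN1 by 0.42 ± 0.09 (0.0023), which held under each of the 8 other settings but not without MS023 15 min replicate 1 (-0.34, 0.12) or MS023 with Dex replicate 2 (-0.37, 0.072). From 15 min to 3 h of MS023 it fell by 0.36 ± 0.09 (0.0076), and this was not called without MS023 15 min replicate 1 (-0.28, 0.17), without MS023 3 h replicate 2 (-0.32, 0.090), with non-mitochondrial library size (-0.24, 0.078) or with the trends removed (-0.22, 0.097).

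At 3 h the inhibitors were close. Of the 9 members 0 were called between GSK591 and MS023 by edgeR or by DESeq2, and 0% of all genes were called by edgeR. At an unadjusted p under 0.05, 2 members and 1319 genes differed. All 9 values were below 0, from -0.41 to -0.02, and in 7 members both GSK591 libraries lay below both MS023 libraries, a separation that 17.6% of all tested genes show. SRXN1 was at -0.30 ± 0.14 (adjusted p 0.80) and GCLM at -0.29 ± 0.12 (0.75), the 2 members with an unadjusted p under 0.05. A p that misses the threshold does not show that the inhibitors act alike on these genes.

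The authors' deposited tables, which compare each treatment with the control by DESeq2, had SRXN1 and GCLC as the members under an adjusted p of 0.05. Of all genes in the authors' deposited tables, 0 were under it with GSK591 at 15 min and 3 with MS023 at 15 min. With Dex 154 were under it beside GSK591 and 238 beside MS023, and at 3 h 535 with GSK591 and 359 with MS023. In the authors' deposited table for MS023 at 3 h SRXN1 was at 1.69 (adjusted p 2.4e-06), and in that for GSK591 at 3 h at 1.40 (0.00015). In the authors' deposited tables with Dex it was at 1.53 beside MS023 (2.8e-05) and 1.22 beside GSK591 (0.0044). For GCLC the authors' deposited tables give 0.56 with MS023 at 3 h (0.012), 0.46 with GSK591 at 3 h (0.045) and 0.52 with MS023 and Dex (0.038), while 0.51 with GSK591 and Dex was not under their threshold (0.063). No other member had an adjusted p under 0.05 in the authors' deposited tables. These values may not be like for like with those above. For GCLM with MS023 at 15 min the authors' deposited table gives -0.68. The fit here gave -0.59 with both untreated libraries and -0.69 without untreated replicate 1. For SLC7A11 with MS023 and Dex the authors' deposited table gives -0.34, against -0.39 and -0.34 in these fits. Which control libraries the authors' values rest on was not tested.

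The genes for NRF2 itself and its inhibitors were called in none of the 13 comparisons. NFE2L2, which encodes NRF2, was at 47.6 ± 1.68 CPM in untreated cells (SD, n = 2) and between 43.1 and 58.0 CPM over the 14 libraries. Its mean was 55.5 ± 3.60 CPM after 3 h of MS023, a log2 difference of 0.22 ± 0.10 (adjusted p 0.21, edgeR). KEAP1 was at 79.8 ± 6.15 CPM untreated and BACH1 at 7.87 ± 1.10. The difference of the Dex effects in KEAP1 was -0.54 with an adjusted p of 0.062.

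Of 13 regulator genes, 2 fell with GSK591 and Dex against untreated cells (5.85% of all genes called), and 2 fell and 1 rose with MS023 and Dex (7.66%). SQSTM1, whose protein p62 draws KEAP1 into autophagy, fell by 0.69 ± 0.10 with GSK591 and Dex (adjusted p 7.9e-06) and by 0.64 ± 0.10 with MS023 and Dex (1.4e-05). Its exons share bases with MRNIP on the other strand. MAFG, a small MAF partner of NRF2, fell by 0.55 ± 0.10 (0.00018) and 0.57 ± 0.09 (4.2e-05). MAFF, another small MAF, rose by 0.50 ± 0.12 with MS023 and Dex (0.0034), a call not kept without untreated replicate 2 (0.45, 0.081). At 3 h MAFK fell by 0.31 ± 0.10 with GSK591 (0.044). It was not called by DESeq2 (0.11), with library size alone (-0.17, 0.52) or without any 1 of the 4 libraries (-0.39 to -0.23). With MS023 at 3 h, edgeR and DESeq2 each called 0 of the 13, of which 3 had an unadjusted p under 0.05 (edgeR). Of all 21910 tested genes, 4368 did.

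**Figure D4:**
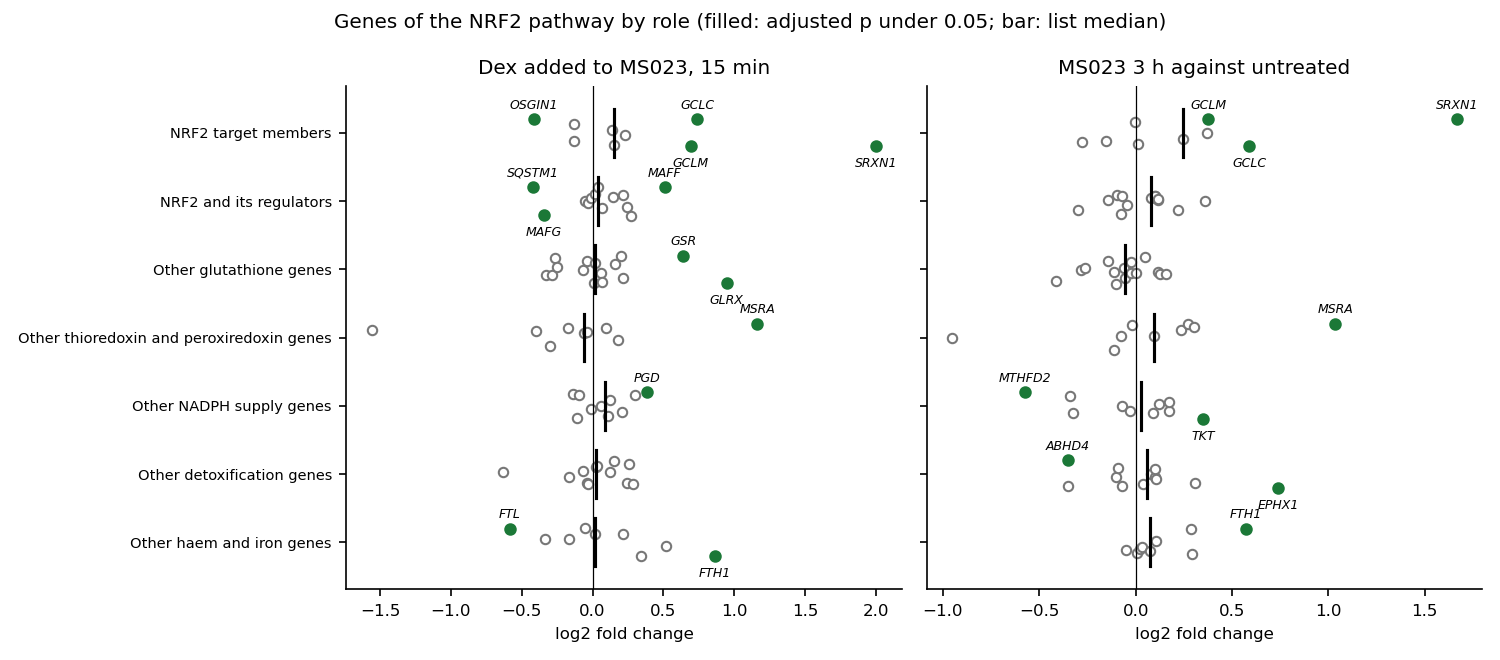
Log2 fold changes on the horizontal axis for the members and 6 lists of other NRF2 pathway genes, 1 point per tested gene, with vertical bars at list medians and named, filled points where the adjusted p is under 0.05. In the left panel (Dex added to MS023) and the right panel (MS023 for 3 h against untreated) most genes of each list lie near 0, and SRXN1 lies farthest right at 2.00 and 1.67.

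Other genes of the pathway, 68 tested of 69 in 6 lists, were called at 3 h at shares near those of all tested genes. At 3 h, 6 were called with MS023 (8.82%, against 7.63% of all genes), 4 of them higher, and 8 with GSK591 (11.8%, against 11.0%), 5 of them higher. With Dex 7 were called beside each inhibitor (10.3%, against 5.85% of all genes for GSK591 and 7.66% for MS023), of which 3 were higher beside GSK591 and 4 beside MS023. In the remaining comparisons with untreated cells, both at 15 min without Dex, edgeR called 0 of 68. DESeq2 called 0 with GSK591 and 1 with MS023 there, and 5 and 15 of the 68 had an unadjusted p under 0.05 (edgeR). Of all 21910 tested genes, 1501 and 1770 did. Their median log2 fold change lay between -0.05 and 0.03 in all comparisons with untreated cells. Beside the glutathione members, 1 of 15 other glutathione genes was called with each inhibitor and Dex: GLRX, glutaredoxin, which reduces glutathionylated proteins, rose by 0.63 ± 0.12 beside GSK591 (adjusted p 0.00062) and 0.61 ± 0.12 beside MS023 (0.00042). At 3 h, 1 of the 15 was called with GSK591: GSS, glutathione synthetase, rose by 0.35 ± 0.11 (0.028), not called by DESeq2 (0.097) or without any 1 of the 4 libraries (0.27 to 0.43). Dex added to MS023 raised GLRX by 0.95 ± 0.12 (4.7e-07) and GSR, glutathione reductase, by 0.64 ± 0.12 (0.00037). The GSR value was not called with the GC and length trends removed (0.32, 0.085), with library size alone (0.46, 0.054) or without MS023 with Dex replicate 2 (0.47, 0.063).

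In each of the 4 comparisons with Dex or 3 h against untreated cells, 1 of 9 other thioredoxin and peroxiredoxin genes tested was called (11.1%). Of all tested genes 5.85% to 11.0% were called there. The gene was MSRA, a methionine sulfoxide reductase. MSRA rose by 1.09 ± 0.19 with GSK591 at 3 h (adjusted p 8.4e-05) and by 1.04 ± 0.20 with MS023 at 3 h (0.00027), and Dex added to MS023 raised it by 1.16 ± 0.21 (0.00010). Its call with GSK591 and Dex was lost under 4 of the 8 other settings and without either untreated library (0.91, 0.067 and 0.60, 0.24) or GSK591 with Dex replicate 2 (0.59, 0.22). Of 10 other NADPH genes MTHFD2, a mitochondrial folate enzyme, fell by 0.51 ± 0.15 and 0.57 ± 0.15 at 3 h of GSK591 and MS023 (0.017 and 0.011), while DESeq2 gave adjusted p of 0.090 and 0.072. Without untreated replicate 2 neither was called (-0.39, 0.26 and -0.45, 0.23), nor was the first without GSK591 3 h replicate 2 (-0.34, 0.29) or the second without MS023 3 h replicate 1 (-0.43, 0.24). TKT, transketolase, rose by 0.35 ± 0.10 with MS023 (0.028), a call lost with library size alone (0.37, 0.11) and without untreated replicate 2 (0.28, 0.34), MS023 3 h replicate 1 (0.32, 0.19) or MS023 3 h replicate 2 (0.39, 0.057). At 3 h, 2 of 12 other detoxification genes were called with each inhibitor (16.7%), and they went opposite ways. Of all tested genes 11.0% were called with GSK591 and 7.63% with MS023. EPHX1, microsomal epoxide hydrolase, rose by 0.95 ± 0.12 with GSK591 at 3 h (1.2e-07) and by 0.74 ± 0.12 with MS023 (2.4e-05), values that stayed at 0.95 and 0.76 with the trends removed. ABHD4, an alpha/beta hydrolase of lipid metabolism, fell by 0.48 ± 0.10 with GSK591 (0.0014) and by 0.35 ± 0.10 with MS023 (0.029). The fall with GSK591 was not called with library size alone (-0.35, 0.13) or without untreated replicate 2 (-0.43, 0.052), and that with MS023 was not called by DESeq2 (0.11), with library size alone (-0.33, 0.23) or without any 1 of the 4 libraries (-0.38 to -0.30). UGDH, which makes UDP-glucuronate, fell by 0.38 ± 0.11 with GSK591 and Dex (0.033), but DESeq2 did not call it (0.078), and without GSK591 with Dex replicate 1 it was -0.26 (0.26). Without either untreated library it was not called (-0.37, 0.22 and -0.41, 0.12).

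Beside HMOX1, 2 of 9 haem and iron genes were called with each inhibitor and Dex (22.2%), and they went opposite ways. Of all tested genes 5.85% were called with GSK591 and Dex and 7.66% with MS023 and Dex. FTH1, the ferritin heavy chain, rose by 0.37 ± 0.11 beside GSK591 (adjusted p 0.027) and 0.45 ± 0.10 beside MS023 (0.0038), whereas FTL, the light chain, fell by 0.55 ± 0.10 (0.00051) and 0.62 ± 0.10 (4.5e-05). At 3 h FTH1 rose by 0.63 ± 0.10 with GSK591 (2.6e-05) and 0.57 ± 0.10 with MS023 (0.00015), and FTL rose by 0.44 ± 0.10 with GSK591 (0.0021). Without untreated replicate 2 that FTL value was 0.34 (0.14), and without untreated replicate 1 the fall of FTL with GSK591 and Dex was -0.44 (0.068). The FTH1 rise with GSK591 and Dex was not called by DESeq2 (0.066), with library size alone (0.23, 0.38), without either untreated library (0.42, 0.12 and 0.32, 0.26) or without GSK591 with Dex replicate 2 (0.33, 0.15). The rise with MS023 and Dex was not called with library size alone (0.44, 0.050), without untreated replicate 2 (0.39, 0.097) or MS023 with Dex replicate 2 (0.25, 0.31). Both ferritin genes have processed copies elsewhere in the genome, and FTH1 shares exon bases with BEST1 on the other strand, so their values are uncertain.

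The genes nearest to SRXN1 lay outside the list. They were picked from far more candidates than there are members, which by itself favours a small distance. Among 9129 candidates with at least 2 CPM and no exon overlap, likeness was the root mean square difference of centred log2 CPM over the 14 libraries, whose median over candidates was 0.81. The nearest were CRLS1, cardiolipin synthase, at 0.17, CITED4, a transcriptional coactivator, at 0.17, and TMEM117 at 0.18. ULK2, an autophagy kinase, followed at 0.19 and PPP2CB, a catalytic subunit of protein phosphatase 2A, at 0.21. The nearest member was GCLC at 0.50, followed by GCLM at 0.56. OSGIN1 was the farthest at 0.92, the only member above the candidates' median. CRLS1 had group means of 14.5 CPM untreated, 30.7 after 15 min of GSK591, 14.2 after 15 min of MS023, 35.03 and 43.8 with Dex beside GSK591 and MS023, and 49.4 and 50.4 at 3 h.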

How the data were processed

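Nascent RNA was measured by PRO-seq in 14 libraries. The deposited table holds read counts per gene, whole numbers not normalized. Subread, featureCounts 2.0.1, DESeq2 and the build hg38 are named per the submitters' processing notes, with no role or order. The counted feature, strand setting and handling of duplicates are not given in the sources used here. The authors' 6 comparison tables hold for each gene a mean signal, a log2 fold change with its error, a test score and p-values, per the file headers. Gene positions came from GENCODE 29 and sequences from RefSeq GRCh38.p14.

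Counts as deposited were fitted with edgeR 4.0.16 (R 4.3.3, quasi-likelihood test, TMM scaling, the expression filter of edgeR), 1 coefficient per group and 7 residual degrees of freedom, in 13 comparisons. The biological coefficient of variation was 0.073. CPM values are on TMM-scaled sizes. The fit was tested on simulated data. No spike-in was used here, so changes are relative to the bulk of genes.

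The members and pathway lists were chosen with earlier results of these data known. All 9 members were named. From each pathway list up to 3 called genes with the smallest p in the 3 h and Dex comparisons could be named, with NFE2L2, KEAP1 and BACH1 always named, PER1 as the only check of Dex, and the 5 genes most like the member of widest range. Alternatives were DESeq2 1.42.0 (size factors, Wald test), other scalings, no count filter, only the groups compared, a replicate block, each library left out and, added after the data were seen, removal of GC and length trends per library. Same-numbered libraries did not deviate together: over 21 pairs of groups the correlation of deviations was -0.07 to 0.09, so numbers were not taken as pairs. Replicate counts differed by more than sampling noise in every group (chi-square per degree of freedom 2.15 to 15.4).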

Additional observations from a re-analysis of the deposited data

Results flagged for a closer look

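Of the members, SRXN1 differed in its Dex effect between the inhibitors by a test of the difference itself. The Dex effect beside GSK591 minus that beside MS023 was -1.54 on the log2 scale (adjusted p 0.00028, edgeR), with 0.46 beside GSK591 and 2.00 beside MS023. Both libraries with Dex were above both without it in each inhibitor. Without MS023 15 min replicate 1 the difference was -1.25 (0.063).

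Among the other pathway genes FTH1 met the same test. The Dex effect beside GSK591 minus that beside MS023 was -0.58 (adjusted p 0.042). It was -0.57 (0.041) with the GC and length trends removed, and it was not called by DESeq2 (-0.58, 0.097), with library size alone (-0.60, 0.22), in a fit of only the groups compared (-0.57, 0.11), or without 1 library in 6 of the 8 cases. The smallest of these values was -0.39 (0.41), without MS023 with Dex replicate 2.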

How the results depend on the processing

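Of 31 called pairs of a member and a comparison, 11 stayed called under every alternative and every omission of a library, and 0 changed sign. The 11 are SRXN1 in 6 comparisons, GCLC in 3 and GCLM in 2. The larger moves in the counts of called members were as follows. Smaller changes, such as MS023 at 3 h from 3 to 2 by DESeq2, are not listed. A count can also stay the same with other members. For Dex added to GSK591 with library size alone, GCLC lost its call (adjusted p 0.38, edgeR) and OSGIN1 gained one (0.019). With GSK591 at 15 min the count of 1 went to 0 with DESeq2 size factors, library size alone, non-mitochondrial library size or the GC and length trends removed. With MS023 at 15 min it went from 1 to 0 with library size alone. With GSK591 and Dex it went from 3 to 5 with non-mitochondrial library size, and with MS023 and Dex from 4 to 2 with library size alone. At 3 h GSK591 went from 4 to 2 with library size alone or the trends removed, and MS023 from 3 to 1 with the trends removed. Dex added to GSK591 went from 1 to 2 with non-mitochondrial library size. GSK591 at 3 h against 15 min went from 2 to 1 with library size alone and to 0 with the trends removed. GSK591 against MS023 at 15 min went from 2 to 1 with DESeq2 size factors, library size alone, the DESeq2 test or the trends removed. Leaving out 1 library gave 0 to 1 called members with GSK591 at 15 min, 0 to 0 with MS023 at 15 min, 2 to 3 with GSK591 and Dex, 2 to 2 with MS023 and Dex, 2 to 2 with GSK591 at 3 h and 2 to 3 with MS023 at 3 h. It gave 0 to 2 for Dex added to GSK591, 3 to 4 for Dex added to MS023, 0 to 1 for their difference, 0 to 2 and 3 to 6 for 3 h against 15 min of GSK591 and MS023, and 0 to 1 and 0 to 0 for the inhibitors at 15 min and 3 h. A group then holds 1 library, assumed to vary like the others. Except for construction of the scalings, the cause was not tested. Library size alone moved the median of all genes by up to -0.21 (Dex added to GSK591) and 0.16 (MS023 at 15 min). For SRXN1 with GSK591 at 15 min DESeq2 gave no adjusted p.

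With the replicate block, counts were 1, 1, 3, 4, 4 and 4 in the 6 comparisons with untreated cells, and the count at 3 h of MS023 rose from 3 to 4 as OSGIN1 was added (-0.28, adjusted p 0.043). GSK591 at 3 h against 15 min rose from 2 to 3 with TXNRD1 (-0.31, 0.044). No other count changed.

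Among other pathway genes, GSR changed sign with the trends removed in MS023 at 3 h against 15 min, from 0.37 to -0.012 (adjusted p 0.97). Their count for Dex added to GSK591 went from 5 to 13 with library size alone. Depth was lowest for ME1 among the members, at 41 to 67 counts per library, and its part in the absence of a call was not tested.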
